A study of Rattus norvegicus with 54 samples.

Results

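Fos, Fosb, Fosl2, Jun, Junb, Jund, Atf3, Egr1, Maff and Klf4 are 10 transcription factor genes that cells switch on quickly after growth factors, stretch or injury. They were taken by symbol from the 40319 rat genes counted in 54 bulk RNA-seq libraries, and all 10 passed the filter on low counts in each comparison made. Maff was chosen by a measured value, its lower count after cell sheet treatment than in MI hearts with the infarct and border zones summed. Every Maff difference that uses cell sheet libraries, or MI libraries of those zones, is therefore given as a description with no test. The other 9 were taken for their family, with earlier results of these data already known. The hearts came from female F344/NJcl-rnu/rnu rats, an athymic strain that lacks normal T cells, operated on at 8 weeks of age and sampled at 1 week. Sham hearts had surgery without infarction. MI hearts had a permanent ligation of the left anterior descending coronary artery. MI + Cell Sheet hearts had the same ligation and, 15 minutes later, a sheet of human smooth muscle cells (SMCs, made from mesenchymal stem cells) and human endothelial progenitor cells (EPCs) laid on the epicardium. Each of the 18 hearts, 6 per group, gave a piece of the anterior wall (infarct zone), the lateral wall (border zone) and the septum (remote zone). The labels call the libraries technical replicates while the methods describe 1 animal per number, so the p-values measure the spread between these libraries. Reads were aligned to the rat genome alone, and the share that came from human sheet cells was not measured.

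AP-1 is a dimer of basic leucine zipper proteins. A Jun protein (Jun, Junb, Jund) pairs with another Jun, a Fos protein (Fos, Fosb, Fosl2) or Atf3, and the pair binds regulatory DNA. Fos, Fosb, Jun, Junb, Egr1 and Atf3 are immediate early genes, whose transcription starts without new protein synthesis. Fosl2 lasts longer after a stimulus, and Jund is present in most resting cells. Maff encodes a small Maf protein, which has no activation domain of its own and acts through partners such as the CNC factors. Egr1 and Klf4 are zinc finger factors; Egr1 answers growth factors and stretch, and Klf4 is known in endothelial and smooth muscle cells. In the heart, Fos, Jun and Egr1 are classic early responders to ischemia and load.

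The promoter letters of the members with a recognised response element are shown because these elements are known to answer cAMP and serum signals. RefSeq promoter windows of assembly GRCr8 held 7 of the 10 members. The windows are the 250 bases before the gene's start, and their coordinates belong to GRCr8, not to mRatBN7.2, the build of the count files. Capitals in the Maff and Jund windows mark the cAMP response element TGACGTCA, and capitals in the Egr1 window mark CArG boxes, the binding motif of serum response factor. Fosl2 held none of the motifs searched and is shown for contrast, since it is the member whose MI and sham levels did not overlap in the injured zones.
Maff (chr7:112792537-112792786, + strand): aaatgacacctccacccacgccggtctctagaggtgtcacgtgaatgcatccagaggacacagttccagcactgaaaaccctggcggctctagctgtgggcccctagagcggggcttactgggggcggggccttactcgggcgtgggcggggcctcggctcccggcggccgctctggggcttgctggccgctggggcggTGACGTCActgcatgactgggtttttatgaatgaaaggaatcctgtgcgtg
Jund (chr16:18769772-18770021, - strand): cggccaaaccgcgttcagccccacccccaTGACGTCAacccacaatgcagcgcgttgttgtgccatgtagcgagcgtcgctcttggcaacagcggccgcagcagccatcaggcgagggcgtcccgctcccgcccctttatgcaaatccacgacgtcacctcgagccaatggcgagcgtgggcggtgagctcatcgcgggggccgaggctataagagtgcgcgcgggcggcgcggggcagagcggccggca
Egr1 (chr18:26736828-26737077, + strand): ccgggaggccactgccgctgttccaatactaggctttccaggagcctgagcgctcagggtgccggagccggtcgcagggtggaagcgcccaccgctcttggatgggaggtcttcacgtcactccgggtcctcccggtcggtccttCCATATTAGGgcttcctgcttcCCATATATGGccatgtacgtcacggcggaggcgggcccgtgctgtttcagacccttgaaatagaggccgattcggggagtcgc
Fosl2 (chr6:30039270-30039519, - strand): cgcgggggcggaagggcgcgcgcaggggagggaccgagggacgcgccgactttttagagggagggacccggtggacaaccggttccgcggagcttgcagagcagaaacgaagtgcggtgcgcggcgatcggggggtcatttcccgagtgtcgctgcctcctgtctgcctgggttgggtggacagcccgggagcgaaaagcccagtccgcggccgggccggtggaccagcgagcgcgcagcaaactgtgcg
Both strands were searched. The cAMP response element lay 51 to 44 bases before the start of Maff and 221 to 214 bases before that of Jund, and 1.59% of 33469 promoter windows of this length held it. Egr1 held 2 CArG boxes, at 105 to 96 and 83 to 74 bases before the start, against 1.5% of windows with at least 1 and 0.0209% with 2 or more. The AP-1 site, TGACTCA or TGAGTCA, was in 4.05% of windows and in 0 of the 7 members. These are matches of letters, not measured binding.

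Each library held between 12699204 and 23397754 counts assigned to genes. Levels are CPM, counts scaled to the library size with trimmed mean of M values (TMM) factors over the 54 libraries. Group differences are log2 fold changes with standard errors (SE) from edgeR's quasi-likelihood F test, and a gene was called at a Benjamini-Hochberg adjusted p below 0.05 over all genes tested. A pair of hearts stood apart. Sham replicate 5 had summed macrophage markers of 12200 CPM in the infarct and border zones and 7030 CPM in the remote zone, against sham medians of 546, 588 and 343 CPM, and the lowest sham cardiomyocyte sums (25300 to 43900 CPM). Cell sheet replicate 1 had the lowest cell sheet cardiomyocyte sums in the border and remote zones, 542 and 30600 CPM against medians of 29000 and 80400 CPM. Its remote zone fibroblast sum was 39000 CPM against a median of 4980 CPM. Calls that changed when either heart was left out are named with the results. The pieces also differed in composition. In the infarct zone, MI libraries had median cardiomyocyte and fibroblast sums of 14400 and 31900 CPM, against 78600 and 4610 CPM in sham. Fewer cells of a type and less RNA per cell cannot be told apart in bulk samples, and the part of composition in the results below was not tested.

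Maff had lower levels in cell sheet hearts than in MI hearts in every zone, and in the infarct and border zones it was also below sham. In the infarct zone, the lowest, median and highest Maff levels were 28.3, 34.8 and 41.8 CPM in sham, 21.8, 32.5 and 45.1 CPM in MI, and 15.6, 20 and 25.3 CPM in cell sheet hearts. The cell sheet libraries all lay below the sham libraries and overlapped the lower end of the MI libraries. The corresponding border zone values were 30.2, 34 and 43.9 CPM in sham, 23.5, 34.9 and 65.5 CPM in MI, and 12.9, 19.2 and 24.3 CPM in cell sheet hearts. Again the cell sheet and sham ranges did not meet, while the highest cell sheet library was just above the lowest MI library. The share of all genes whose cell sheet and sham ranges do not meet was not counted.

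**Figure D1:**
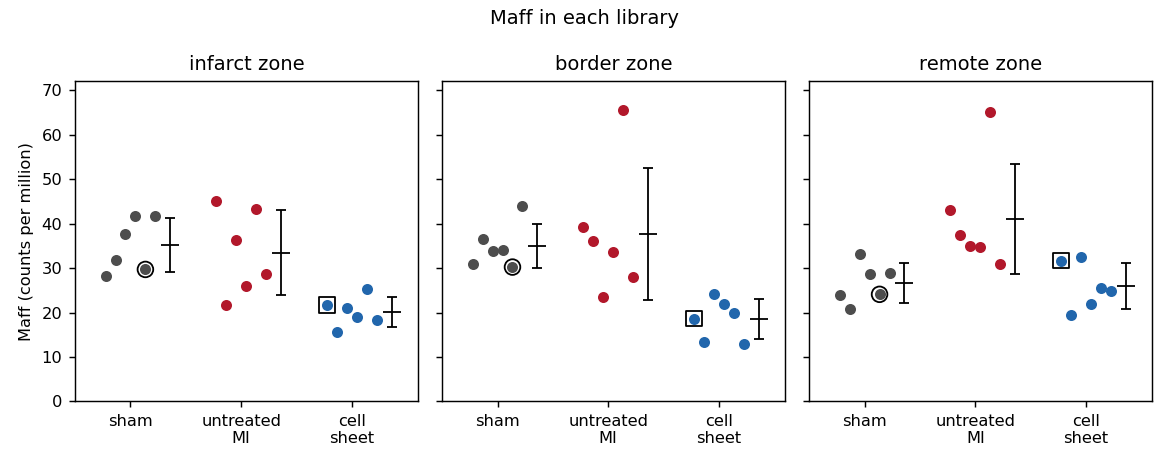
Maff level in CPM (y axis, from 0) in each library of the sham, MI and cell sheet groups, by zone. Points are libraries, bars are mean ± SD (n = 6), a circle marks sham replicate 5 and a square cell sheet replicate 1; the cell sheet points sit between 12.9 and 25.3 CPM in the infarct and border zones, below all sham points there.

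As a description of the contrast that chose it, Maff differed between cell sheet and MI hearts by a log2 fold change of -0.74 in infarct zone libraries, -1.01 in border zone libraries and -0.87 with both zones summed per heart. MI replicate 5 carried the highest border zone value, 65.5 CPM, and without that heart the differences were -0.64, -0.78 and -0.71. The remote zone libraries were not part of that choice, although they came from the same hearts. There, Maff ranged over 20.7, 26.4 and 33.1 CPM in sham, 30.8, 36.2 and 65.1 CPM in MI, and 19.5, 25.2 and 32.5 CPM in cell sheet hearts (lowest, median, highest). The remote zone difference between cell sheet and MI hearts was -0.67 on the log2 scale, and -0.49 without MI replicate 5, the highest library. It is a description too, since the same hearts in the same contrast chose Maff.

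Against sham, the MI libraries of the remote zone were tested. They come from hearts whose Maff levels took part in choosing it, so the p-value is not independent of that choice. In the remote zone, MI hearts had 1.54 times the sham level (log2 fold change 0.62, SE 0.18, edgeR adjusted p = 0.0218). Without MI replicate 5, the highest library, the log2 fold change was 0.44 (edgeR adjusted p = 0.0355). MI against sham called 25.8% of 15294 genes in this zone, and Maff was the 1 member called; the call was lost without sham replicate 2 (highest edgeR adjusted p over the alternatives, 0.0526). The other values against sham are descriptions. Remote zone Maff in cell sheet hearts was at 26 ± 5.22 CPM against 26.6 ± 4.47 CPM in sham (SD, n = 6 each). In the infarct zone, MI and sham hearts were at 33.5 ± 9.58 and 35.1 ± 6.02 CPM, and in the border zone at 37.7 ± 14.8 and 34.9 ± 4.97 CPM. Cell sheet hearts, at 20.2 ± 3.34 and 18.5 ± 4.57 CPM in these zones, differed from sham by log2 fold changes of -0.79 and -0.93.

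Cell type markers also differed between cell sheet and MI hearts in the border and remote zones. In the infarct zone 0 markers of each list were called, and 0% of all genes. From MI to cell sheet hearts, the border zone had 4 of 6 mural markers, 3 of 6 tested adipocyte markers and 1 of 7 endothelial markers called higher, and 1 of 7 macrophage markers called lower. Of all genes, 18% were called in this zone. In the remote zone, 3 of 6 mural and 2 of 10 cardiomyocyte markers were called higher, while 1 of 7 fibroblast, 1 of 7 endothelial, 1 of 7 macrophage and 2 of 4 tested neutrophil markers were called lower. There, 17.1% of all genes were called. The summed endothelial markers ran from 871 to 1290 CPM in MI border libraries and from 1150 to 1570 CPM in cell sheet border libraries. Their median log2 fold change was -0.18 in the infarct, 0.1 in the border and -0.13 in the remote zone. In the same order the tested mural markers had 0.4, 0.67 and 0.54, the adipocyte markers 0.32, 3.27 and -0.24, and the neutrophil markers 0.44, -1.11 and -2.36. The part of these markers in the Maff difference was not tested.

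Fosl2, a Fos family member, was called higher than sham in both injured zones, with and without the sheet. Its lowest, median and highest infarct zone levels were 27.4, 35.6 and 46.3 CPM in sham, 56.6, 87.4 and 104 CPM in MI, and 65.8, 104 and 146 CPM in cell sheet hearts. Border zone Fosl2 ran over 30.6, 38.1 and 53.1 CPM in sham, 66.2, 75.9 and 151 CPM in MI, and 80.1, 108 and 170 CPM in cell sheet hearts. In both zones every MI and every cell sheet library was above every sham library. The share of all genes that separate in this way was not counted. MI against sham called 49.9% of genes in the infarct and 41.7% in the border zone, and cell sheet against sham 57.9% and 43.6%. Fosl2 rose from sham to MI 2.31-fold in the infarct zone (log2 fold change 1.21, SE 0.18, edgeR adjusted p = 0.000454) and 2.3-fold in the border zone (log2 fold change 1.2, SE 0.22, edgeR adjusted p = 0.00226). From sham to cell sheet hearts it rose 2.97-fold in the infarct zone (log2 fold change 1.57, SE 0.2, edgeR adjusted p = 0.000105) and 3.01-fold in the border zone (log2 fold change 1.59, SE 0.21, edgeR adjusted p = 0.000115). None of these 4 calls was lost in an alternative that was run. Cell sheet hearts were above MI hearts by 0.33 (SE 0.2, edgeR adjusted p = 0.691) and 0.41 (SE 0.25, edgeR adjusted p = 0.292) on the log2 scale, which did not pass the test.

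Remote zone Fosl2 spanned 29.8, 45.3 and 64 CPM in sham, 47, 57.7 and 79.3 CPM in MI, and 39.5, 45.5 and 76.8 CPM in cell sheet hearts, and the 3 ranges overlapped. The difference between MI and sham was 0.32 on the log2 scale (SE 0.17, edgeR adjusted p = 0.178), and without sham replicate 5, the highest sham library, it was 0.44 and passed (edgeR adjusted p = 0.0244). Without cell sheet replicate 1, the highest of the cell sheet libraries, Fosl2 was lower in cell sheet than in MI hearts (log2 fold change -0.38, edgeR adjusted p = 0.0347); with it the difference was -0.22 (edgeR adjusted p = 0.387).

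Among 15758 infarct zone genes 49.9% were called between MI and sham; the border zone gave 41.7% of 15641. Of the members, Fosl2 and Junb were called higher in the infarct zone, which makes 2, Fosl2 alone (1) in the border zone, and 0 were called lower. The members' median log2 fold changes were 0.51 and 0.52, against -0.02 over all genes tested in each zone. Cell sheet hearts against sham gave 57.9% of 15687 infarct zone genes and 43.6% of 15960 border zone genes. Apart from Maff, the called members numbered 7 of 9 in infarct tissue and 4 of 9 in border tissue, each higher, with median log2 fold changes over all 10 members of 0.76 and 0.41 against 0.01 and -0.03 over all genes. In the remote zone that comparison called 0.0066% of 15157 genes, which is 1 gene (1520 at an unadjusted p below 0.05), and 0 members; DESeq2 called 180 genes there, and also 0 members. In the remote zone, cell sheet against MI called 17.1% of 15374 genes. MI and cell sheet hearts were both compared with the same sham libraries.

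**Figure D2:**
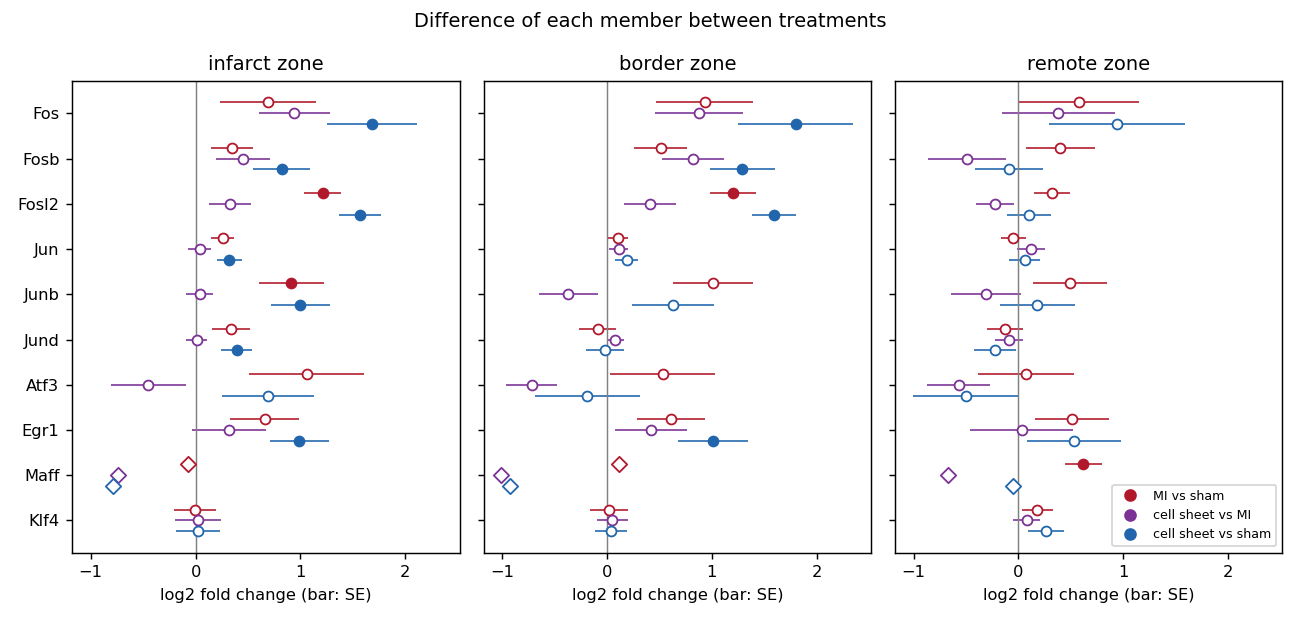
Log2 fold change of each member (x axis, bars are SE) for MI against sham, cell sheet against MI and cell sheet against sham, by zone. Filled points had an edgeR adjusted p below 0.05, open circles did not, and open diamonds are the Maff differences given without a test; in the infarct zone the cell sheet against sham points lie above 0 for 9 of 10 members, with Maff, untested, at -0.79.

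Fos, the partner that gives AP-1 its early activity, was above sham in cell sheet hearts. Its lowest, median and highest infarct zone levels were 3.98, 12 and 27.1 CPM in sham, 8.58, 21.1 and 33.2 CPM in MI, and 19.8, 39.4 and 59 CPM in cell sheet hearts. Border zone levels were 3.72, 11 and 26.1 CPM in sham, 11.7, 26 and 34.3 CPM in MI, and 9.04, 41.9 and 80.8 CPM in cell sheet hearts. The groups overlapped in both zones. Fos rose 3.19-fold from sham to cell sheet hearts in the infarct zone (log2 fold change 1.68, SE 0.43, edgeR adjusted p = 0.00622) and 3.49-fold in the border zone (log2 fold change 1.8, SE 0.55, edgeR adjusted p = 0.019). Between MI and sham its log2 fold change was 0.69 (SE 0.46, edgeR adjusted p = 0.224) in the infarct zone and 0.93 (SE 0.46, edgeR adjusted p = 0.118) in the border zone. Without sham replicate 5, the highest sham library in both zones, these were 1.05 (edgeR adjusted p = 0.0471) and 1.28 (edgeR adjusted p = 0.0213).

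Fosb, a close relative of Fos, was detected at low counts, between 11 and 129 per library. Cell sheet hearts had 2.85 ± 1.05 CPM in the infarct zone and 3.75 ± 1.6 CPM in the border zone, against 1.63 ± 0.287 and 1.52 ± 0.444 CPM in sham (SD, n = 6 each). The rise passed the test in the infarct zone (log2 fold change 0.82, SE 0.27, edgeR adjusted p = 0.0204) and in the border zone (log2 fold change 1.29, SE 0.31, edgeR adjusted p = 0.00583). With sham replicate 5 and cell sheet replicate 1 both left out, the infarct zone call was lost, with an edgeR adjusted p of 0.0556. MI hearts had 2.16 ± 0.575 CPM in the border zone, and the log2 difference of 0.82 between cell sheet and MI hearts there missed the threshold (SE 0.3, edgeR adjusted p = 0.0757).

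Egr1, whose promoter window holds the pair of CArG boxes printed above, had infarct zone levels of 11.7, 15.7 and 28.4 CPM in sham, 14.6, 24.9 and 50.5 CPM in MI, and 21.6, 28.5 and 62.4 CPM in cell sheet hearts (lowest, median, highest). The border zone gave 10.5, 17.4 and 31.5 CPM in sham, 16, 26.4 and 42.3 CPM in MI, and 16.4, 36.4 and 62.1 CPM in cell sheet hearts. All groups overlapped. From sham to cell sheet hearts Egr1 rose 1.99-fold in the infarct zone (log2 fold change 0.99, SE 0.28, edgeR adjusted p = 0.0102) and 2.01-fold in the border zone (log2 fold change 1.01, SE 0.33, edgeR adjusted p = 0.0269). The border zone call was lost in 6 of 19 alternatives, without sham replicate 1, 2, 4 or 6 or cell sheet replicate 1 or 6 (highest edgeR adjusted p, 0.0674). MI and sham hearts differed by 0.66 (SE 0.33, edgeR adjusted p = 0.112) in the infarct zone and 0.61 (SE 0.32, edgeR adjusted p = 0.147) in the border zone on the log2 scale.

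**Figure D3:**
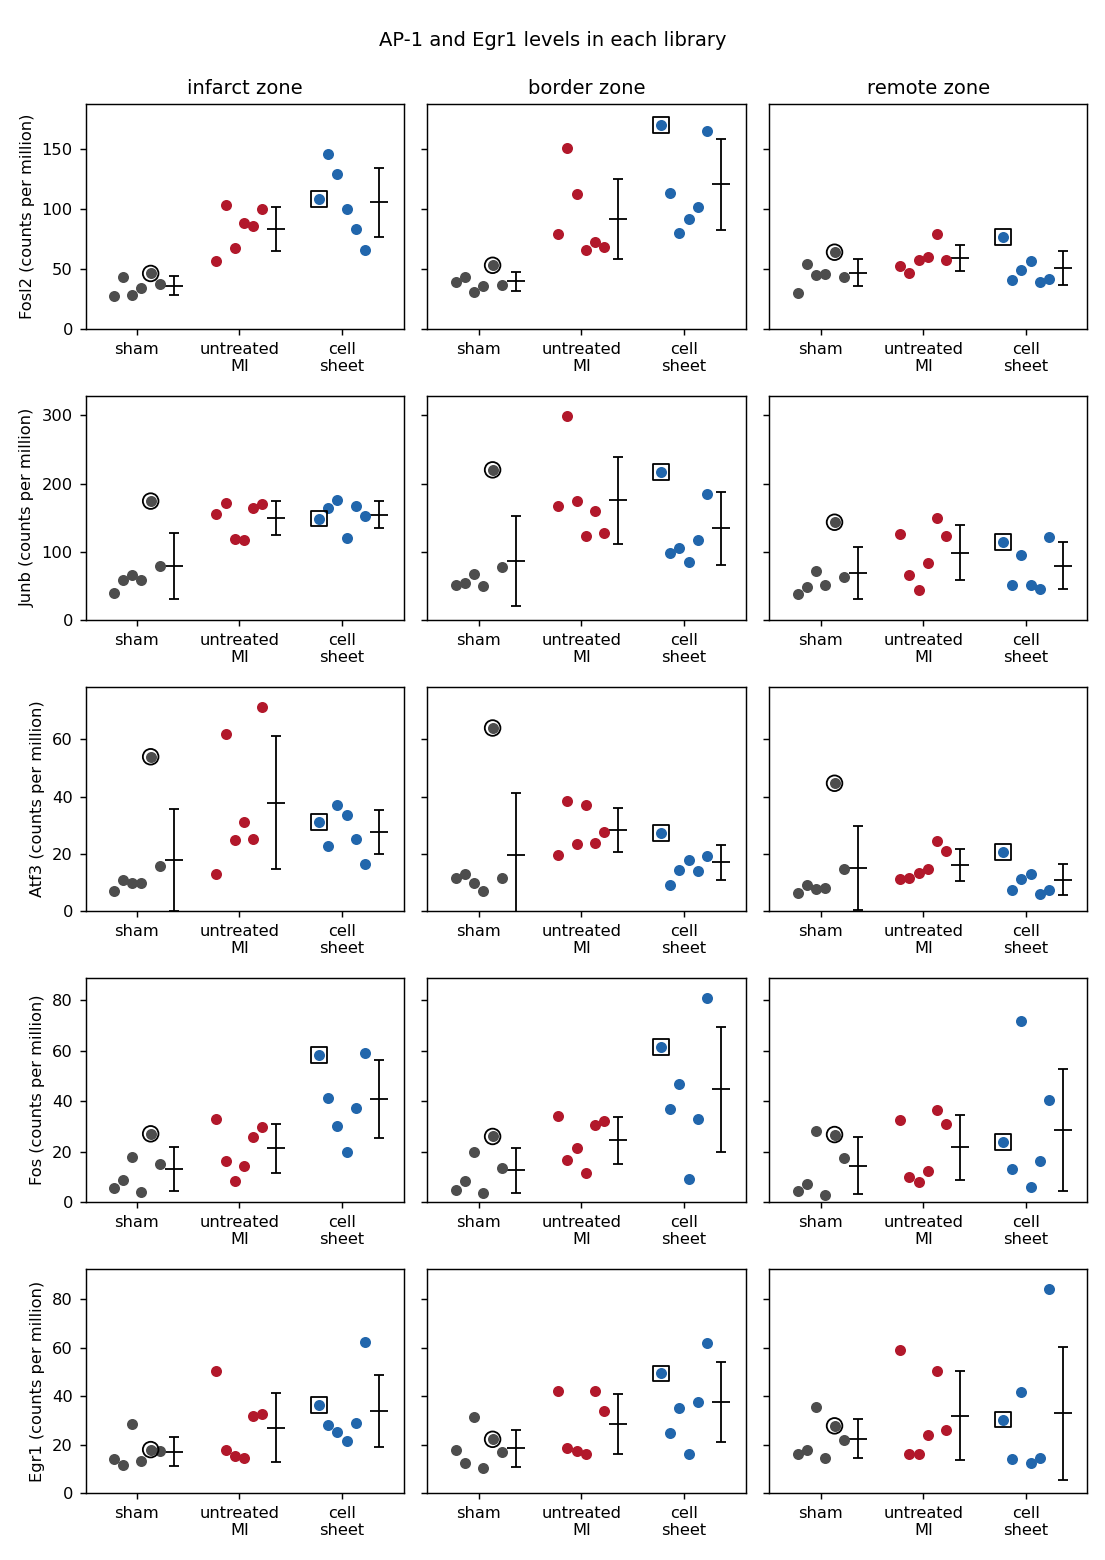
Levels in CPM (y axes, from 0) of Fosl2, Junb, Atf3, Fos and Egr1 in each library, by zone and group. Points are libraries and bars mean ± SD (n = 6), with sham replicate 5 circled and cell sheet replicate 1 in a square; the Fosl2 MI and cell sheet points are above all sham points in the infarct and border zones, and for Atf3 the circled sham points (53.9, 64 and 44.7 CPM) are far above the other sham points.

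Junb, a Jun protein that activates less strongly than Jun, was raised in the infarct zone. Its levels there were 40.3, 62.3 and 174 CPM in sham, 118, 160 and 172 CPM in MI, and 120, 158 and 177 CPM in cell sheet hearts (lowest, median, highest). The 5 other sham libraries lay at or below 79.3 CPM, under every MI and cell sheet library, and sham replicate 5 lay among them. Infarct zone Junb rose from sham to MI 1.87-fold (log2 fold change 0.91, SE 0.31, edgeR adjusted p = 0.0268) and from sham to cell sheet hearts 2-fold (log2 fold change 1, SE 0.28, edgeR adjusted p = 0.00914). Leaving out sham replicate 5 gave a log2 fold change of 1.31 for MI (edgeR adjusted p = 8.13e-05), while leaving out sham replicate 1, 2, 3 or 4 or MI replicate 2, 5 or 6 took the MI call past the threshold, at most to an edgeR adjusted p of 0.0596. In the border zone the MI difference was 1.01 on the log2 scale (SE 0.38, edgeR adjusted p = 0.0517), and 1.54 without sham replicate 5 (edgeR adjusted p = 0.000218). It also passed in DESeq2 (0.99, DESeq2 adjusted p = 0.0313) and in the fit of all 9 groups (edgeR adjusted p = 0.0168). Passing settings too were no TMM factors, at least 10 counts in every library and the replicate block (edgeR adjusted p = 0.0399, 0.0472 and 0.047). The border zone difference between cell sheet hearts and sham was 0.63 (SE 0.39, edgeR adjusted p = 0.204), and 1.13 without sham replicate 5 (edgeR adjusted p = 0.00236). Cell sheet and MI hearts differed in Junb by 0.04 (SE 0.13, edgeR adjusted p = 0.946) in the infarct zone and -0.37 (SE 0.28, edgeR adjusted p = 0.392) in the border zone.

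Jun and Jund changed by smaller amounts. Jun was at 134 ± 17.8 CPM in sham, 161 ± 12.4 CPM in MI and 166 ± 24 CPM in cell sheet infarct zones (SD, n = 6 each). Jun rose 1.25-fold from sham to cell sheet hearts there (log2 fold change 0.32, SE 0.12, edgeR adjusted p = 0.0362). The MI difference of 0.26 did not pass (SE 0.11, edgeR adjusted p = 0.057). It passed without sham replicate 5 (0.29, edgeR adjusted p = 0.0305) or MI replicate 1 (0.28, edgeR adjusted p = 0.0444). Other passing settings were no TMM factors, at least 10 counts in every library and all 9 groups in 1 fit (edgeR adjusted p = 0.00424, 0.0426 and 0.0497). Jund stood at 193 ± 57.6 CPM in sham, 245 ± 32 CPM in MI and 247 ± 20.4 CPM in cell sheet infarct zones. It rose 1.31-fold from sham to cell sheet hearts (log2 fold change 0.39, SE 0.15, edgeR adjusted p = 0.0398). The call of Jun was lost in 10 and that of Jund in 13 of 19 alternatives, with edgeR adjusted p up to 0.0836 and 0.141; leaving out cell sheet replicate 1 was among the losing settings for both, and so was leaving out sham replicate 1, 3 or 4. Sham replicate 5 held the highest sham Jund level in each zone (305 CPM in infarct, 372 CPM in border and 340 CPM in remote tissue), and without it Jund passed for MI against sham in the infarct zone (log2 fold change 0.52, edgeR adjusted p = 0.00198). Jund also passed there without TMM factors and without MI replicate 1 (edgeR adjusted p = 0.0328 and 0.0358). In the border zone, with all libraries, neither gene was called in any of the 3 treatment comparisons.

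Atf3, a stress-induced factor that mostly represses, also had its highest sham levels in that heart. Sham replicate 5 had 53.9 CPM in the infarct, 64 CPM in the border and 44.7 CPM in the remote zone, where the other 5 sham hearts had 7.15 to 15.7, 7.07 to 12.8 and 6.35 to 14.9 CPM. MI infarct zones ran over 13.2, 28.1 and 71.3 CPM and cell sheet infarct zones over 16.6, 28.2 and 37.2 CPM (lowest, median, highest). With all libraries, Atf3 differed from sham in the infarct zone by 1.06 in MI (SE 0.55, edgeR adjusted p = 0.124) and by 0.69 in cell sheet hearts (SE 0.44, edgeR adjusted p = 0.192). Without sham replicate 5 both differences passed, at 1.83 (edgeR adjusted p = 0.00201) and 1.37 (edgeR adjusted p = 0.000406). Border zone differences without it were 1.42 for MI (edgeR adjusted p = 0.000188) and 0.67 for cell sheet hearts (edgeR adjusted p = 0.0357). In all, leaving out sham replicate 5 raised the members called for MI against sham from 2 to 6 in the infarct zone, from 1 to 4 in the border zone and from 1 to 4 in the remote zone. The whole table rose as well, from 7866 to 10434, from 6517 to 9641 and from 3952 to 7177 genes called in the same order. In that remote zone comparison, Junb (0.85, edgeR adjusted p = 0.0163), Atf3 (0.8, edgeR adjusted p = 0.0157) and Fosl2 then passed beside Maff. For cell sheet against sham, leaving out sham replicate 5 added Atf3 in the infarct zone, and Junb and Atf3 in the border zone. In the remote zone 0 members were called. Of all genes, 11159, 9954 and 17 were then called in the 3 zones, against 9078, 6955 and 1 with all libraries. With cell sheet replicate 1 also left out, infarct zone Atf3 passed (edgeR adjusted p = 0.00114), while Fosb and Jun no longer did. In the border zone Jun and Junb then passed (edgeR adjusted p = 0.0412 and 0.00191), and the remote zone had 0. Maff, given without a test, is left out of these.

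Between cell sheet and MI hearts the border zone Atf3 levels were 9.19, 16.2 and 27.3 CPM and 19.6, 25.8 and 38.3 CPM (lowest, median, highest). The ranges overlapped, and the log2 fold change of -0.72 missed the threshold (SE 0.24, edgeR adjusted p = 0.0606). Without cell sheet replicate 1, which had the highest cell sheet value, it was -0.9 and passed (edgeR adjusted p = 0.0182). The remote zone gave a like value, -0.57 with all libraries (SE 0.3, edgeR adjusted p = 0.201) and -0.86 without that heart (edgeR adjusted p = 0.0143).

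Klf4 was not called in any comparison with all libraries. Its group means lay between 95 and 115 CPM in the 9 groups, with SDs of 12.4 to 28.5 CPM (n = 6 each). The largest of its log2 fold changes between treatments was 0.26, for cell sheet against sham in the remote zone (SE 0.17, edgeR adjusted p = 0.652).

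Of the 9 members other than Maff, 0 was called between cell sheet and MI hearts in any zone taken alone or with the 2 injured zones summed. In the border zone 18% of 16272 genes were called, and with the zones summed 12.1% of 17985. DESeq2 also called Fosb (0.82, DESeq2 adjusted p = 0.0412) and Atf3 (-0.71, DESeq2 adjusted p = 0.0372) in the border zone, and Fosb with the zones summed (0.66, DESeq2 adjusted p = 0.0206). Border zone Fos and Fosb also passed without cell sheet replicate 4, the library with the lowest Fos level of its group (1.11 and 0.97, edgeR adjusted p = 0.0327 and 0.0286), as did Fos with the zones summed (1.08, edgeR adjusted p = 0.0407). Border zone Fosb passed in the fit of all 9 groups (0.8, edgeR adjusted p = 0.042), and border zone Atf3 without MI replicate 1 (-0.81, edgeR adjusted p = 0.0477). With the zones summed, edgeR called Fosb without TMM (0.71, edgeR adjusted p = 0.0466), without cell sheet replicate 3 or 5 and without MI replicate 1 (edgeR adjusted p = 0.048, 0.0442 and 0.0406), and Fosl2 without MI replicate 2 (0.52, edgeR adjusted p = 0.0205). In the infarct zone edgeR called 0% of 16196 genes, with 1341 at an unadjusted p below 0.05 and a lowest adjusted p of 0.472; DESeq2 called 59 genes there and a fit of all 9 groups 6. Fos had an unadjusted p of 0.0179 in that zone (edgeR adjusted p = 0.511), with a log2 fold change of 0.94 (SE 0.34). The members' median log2 fold change was 0.04 in infarct, 0.1 in border and -0.15 in remote zone libraries; over all genes it was -0.01, 0 and 0.01.

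Zones of the same heart were then compared with the animal as a block, infarct against remote. In sham hearts, where neither piece was infarcted, 32.4% of 15077 genes were called. Maff was higher in the anterior wall than in the septum of 6 of 6 sham hearts (log2 fold change 0.41, SE 0.08, edgeR adjusted p = 0.000849). Fosl2 and Egr1 were lower in the anterior wall of all 6 (log2 fold changes -0.37 and -0.37, edgeR adjusted p = 0.00139 and 0.00583). Atf3 was called higher by 0.24 (edgeR adjusted p = 0.0495), a call lost in 10 of 11 alternatives, without each of the 6 sham hearts among them.

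In MI hearts, 36.4% of 15901 genes were called, and 3 members were higher in the infarct than in the remote zone, each in 6 of 6 hearts. They were Fosl2 (log2 fold change 0.5, SE 0.15, edgeR adjusted p = 0.0328), Junb (0.7, SE 0.19, edgeR adjusted p = 0.0231) and Atf3 (1.07, SE 0.3, edgeR adjusted p = 0.0266). Each was lost in 3 of 11 alternatives: Fosl2 without MI replicate 2, 4 or 6, Junb without MI replicate 3 or 4 or without the block, and Atf3 without MI replicate 3, 4 or 6. Jun and Jund were higher in 6 of 6 MI hearts as well but were not called (0.19 and 0.31, edgeR adjusted p = 0.123 and 0.0555). The share of all genes higher in 6 of 6 hearts was not counted. In cell sheet hearts, 62.8% of 15854 genes were called, among them the same 3 members and Jund. Fosl2 was higher by 1.05 (SE 0.19, edgeR adjusted p = 0.00377), Junb by 1.07 (SE 0.24, edgeR adjusted p = 0.00765) and Atf3 by 1.43 (SE 0.2, edgeR adjusted p = 0.00324), in 6 of 6 hearts each. Jund was higher by 0.42 in 5 of 6 hearts (SE 0.13, edgeR adjusted p = 0.0232), and was lost without cell sheet replicate 2 or 5. Fosb was higher in 6 of 6 cell sheet hearts and was not called (0.96, SE 0.38, edgeR adjusted p = 0.0584). Maff, as a description, had a lower level in the infarct than in the remote zone of 5 of 6 cell sheet hearts and a log2 fold change of -0.35. The infarct zone pieces of these hearts held fewer cardiomyocyte transcripts than the remote pieces, with median sums of 4200 and 80400 CPM in cell sheet hearts and 14400 and 45500 CPM in MI hearts; their part in the zone differences was not tested.

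**Figure D4:**
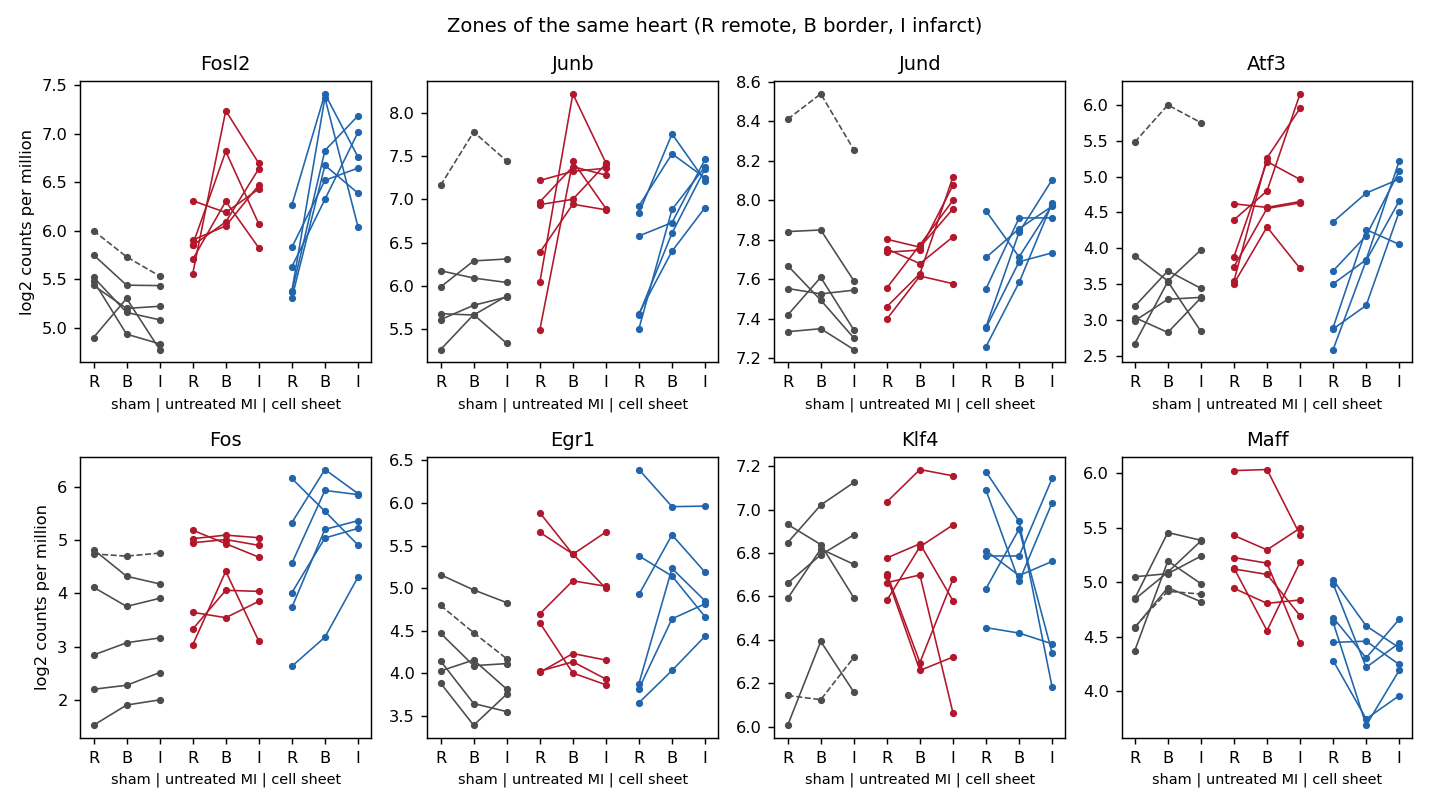
Log2 CPM (y axis) of 8 members in the remote (R), border (B) and infarct (I) zones, with a line for each heart, in sham, MI and cell sheet hearts. The dashed line is sham replicate 5. Fosl2, Junb and Atf3 lines run upwards from remote to infarct in 6 of 6 MI hearts and 6 of 6 cell sheet hearts. Jund, not called there, also runs upwards in 6 of 6 MI hearts, and Maff does so in 6 of 6 sham hearts.

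Whether infarction changed a member more in 1 zone than in the other was tested as the interaction of treatment and zone within hearts. For MI against sham, infarct minus remote, 28.9% of 16445 genes were called, with 3 of the 9 members other than Maff higher and 0 lower. The effect of MI was larger in the infarct zone for Fosl2 (difference of log2 fold changes 0.87, SE 0.17, edgeR adjusted p = 0.0034), Jund (0.47, SE 0.12, edgeR adjusted p = 0.0125) and Jun (0.32, SE 0.09, edgeR adjusted p = 0.021), which was lost with no filter on low counts. For Maff, as a description, the difference was -0.69, with log2 fold changes of 0.62 in the remote and -0.07 in the infarct zone. For cell sheet against MI, 0% of 16902 genes were called for infarct minus remote and 0% of 16784 for border minus remote, with lowest edgeR adjusted p of 0.0999 and 0.0971 and 4190 and 3430 genes at an unadjusted p below 0.05. DESeq2 called 1662 and 1081 genes, with 0 and 1 member; the member was Fosb, with a border minus remote difference of 1.2 (DESeq2 adjusted p = 0.0269). The corresponding edgeR value of Fosb was 1.23 (SE 0.35, edgeR adjusted p = 0.112). Without cell sheet replicate 1, edgeR called 2011 and 216 genes and 0 members. The Maff differences of cell sheet effects, given without a test, were -0.04 for infarct minus remote and -0.29 for border minus remote.

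Deviations of each library from its group mean were compared between members over the 54 libraries, as a description, since the 3 libraries of a heart are not independent and all share depth and composition. Fos and Egr1 deviated together most (Spearman's rho 0.84), followed by Fos with Junb (0.76), Jund with Atf3 (0.76), Maff with Klf4 (0.71), Fos with Jun (0.65) and Fosl2 with Atf3 (0.64). Maff had values between -0.24 and 0.37 with the other 8 members. The most negative value was -0.35, between Fosl2 and Klf4.

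**Figure D5:**
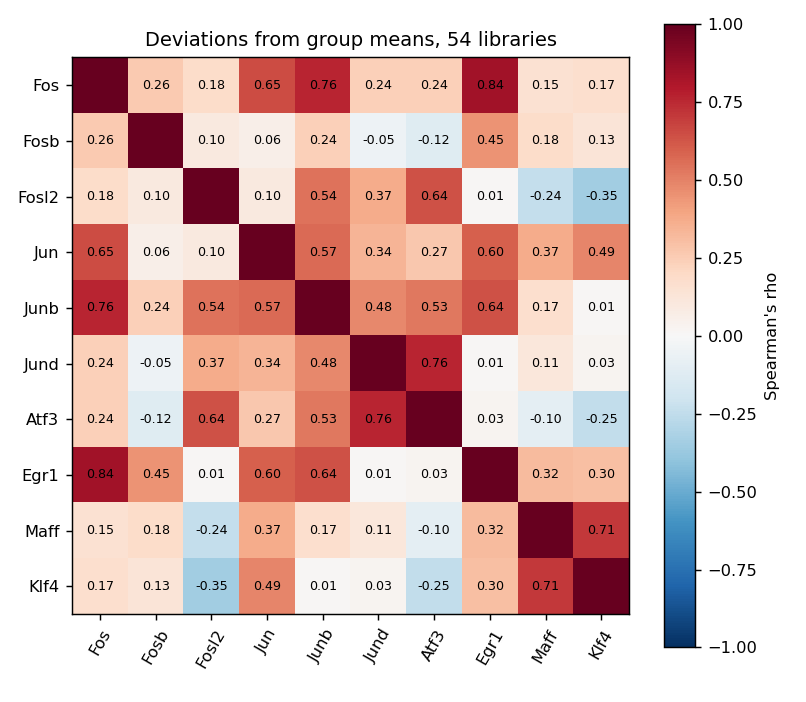
Spearman's rho between members of the deviations of log2 CPM from the group mean, over 54 libraries, with both axes listing the 10 members. Colour runs from blue (-1) to red (1); Fos, Jun, Junb and Egr1 have pairwise values from 0.57 to 0.84, and the Maff and Klf4 pair stands at 0.71.

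Over the levels themselves, the genes most like Maff among 13290 candidates were Calcrl (rho 0.76 over 54 libraries), the receptor subunit for adrenomedullin, Gng11 (0.75), a G protein gamma subunit, Scand1 (0.75), Arl4a (0.74) and Hsd11b1 (0.74), the enzyme that regenerates active glucocorticoid. Those most like Fos were Zfp36 (0.85) and Zfp36l1 (0.68), which promote decay of AU-rich mRNAs, Ccn1 (0.66), Enc1 (0.63) and the orphan receptor Nr4a1 (0.62). The groups and their cell composition contribute to these values.

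Other genes of the pathway were counted from fixed lists. Of 39 other immediate early genes tested in the infarct zone, 17 were called higher and 2 lower in MI than in sham (median log2 fold change 0.38, against -0.02 over all genes); 49.9% of all genes were called in this comparison, and the list's share is near that. The largest rises were Ccn2 (2.88, edgeR adjusted p = 8.29e-05) and Ccn1 (1.7, edgeR adjusted p = 0.000334), matricellular proteins, and Cebpd (1.62, edgeR adjusted p = 0.00081); Phlda1 (-1.02, edgeR adjusted p = 0.011) and the ERK phosphatase Dusp5 (-1.73, edgeR adjusted p = 0.00454) fell. For cell sheet against sham the same list had 21 higher and 2 lower of 39. Both directions together, that is also near the share of all genes, 57.9% (28.6% higher and 29.2% lower). Of 20 other AP-1, Maf and CNC factors tested, 5 were higher and 2 lower in MI (median -0.12), a smaller share than the 49.9% of all genes. The large Maf gene Maf (1.6, edgeR adjusted p = 0.000264) and the Fos relative Fosl1 (1.36, edgeR adjusted p = 0.000701) rose, and Nfe2l1 (-0.88, edgeR adjusted p = 0.00163), a CNC factor, and Mafa (-1.95, edgeR adjusted p = 0.00142) fell. From sham to cell sheet hearts 8 of the 20 were called higher and 4 lower, near the 57.9% of all genes with both directions together. Mafk, another small Maf gene, fell by 0.70 (log2 fold change -0.7, edgeR adjusted p = 0.00167).

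Among 14 tested genes known to be driven by AP-1, 10 were higher and 1 lower in MI than in sham infarct zones (median log2 fold change 2.18), beside the 49.9% of all genes called. Spp1, which encodes osteopontin, had a log2 fold change of 7.31 (SE 1.37, edgeR adjusted p = 0.00169), heme oxygenase Hmox1 2.99 (edgeR adjusted p = 0.00117) and urokinase Plau 2.68 (edgeR adjusted p = 0.00952), while Vegfa fell by 1.22 (log2 fold change -1.22, edgeR adjusted p = 0.00691). Cell sheet against sham gave 11 higher and 2 lower of 15, beside 57.9%. Of 16 upstream kinases and serum response factor genes, 2 were higher and 6 lower in MI. With both directions together this is near the share of all genes. Among them were Elk3 (0.6, edgeR adjusted p = 0.000876) and Srf (-0.71, edgeR adjusted p = 0.00275). Fibroblast markers (5 of 7 higher), macrophage markers (3 of 7 higher) and cardiomyocyte markers (9 of 10 lower) moved in the same comparison, and their part in these counts was not tested.

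Between cell sheet and MI hearts, the infarct zone count was 0 in all 4 lists, as it was for the whole table. In the border zone the growth arrest gene Gadd45b (-0.91, edgeR adjusted p = 0.0156), Ier5 (-0.43, edgeR adjusted p = 0.0173), Crem (-0.54, edgeR adjusted p = 0.00311) and Atf4 (-0.56, edgeR adjusted p = 0.00538) fell, and Atf7 (0.55, edgeR adjusted p = 0.002) and Mrtfb (1.29, edgeR adjusted p = 0.000729), a coactivator of serum response factor, rose. They are 2 of 39, 3 of 20 and 1 of 16 tested genes of their lists, and 0 of 14 genes driven by AP-1 was called, beside 18% of all genes. In the remote zone Crem again fell (-0.53, edgeR adjusted p = 0.0134), as did Socs3 (-1.13, edgeR adjusted p = 0.0255), the feedback inhibitor of cytokine signalling, and Ccnd1 (-0.54, edgeR adjusted p = 0.0284), while Per1 (0.98, edgeR adjusted p = 0.0463) and Srf (0.72, edgeR adjusted p = 0.0103) rose. Of the upstream list, 4 of 16 genes were called higher and 2 lower in that zone, where 17.1% of all genes were called.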

How the data were processed

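Raw counts per gene were used as deposited. Per the labels and the methods, the authors sequenced poly-A RNA as paired-end reads, aligned it with STAR to the rat build mRatBN7.2 and tested it with DESeq2; the submitters' processing notes name DESeq2 and that build. Which tool counted the reads, and whether by strand, is not given in the sources used here, so reads of overlapping antisense genes cannot be told apart. The 5 summary lines of each file, 17% to 42.8% of reads, stayed out of library sizes and tests.

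All 10 members, the pathway lists and the marker lists were chosen with earlier results of these data known. Groups came from the sample titles, 6 libraries in each of 9 groups of zone and treatment. Group differences were tested with edgeR 4.0.16 in R 4.3.3 (TMM, filterByExpr, quasi-likelihood F test, Benjamini-Hochberg over all genes, threshold 0.05), with only the 2 groups compared in the fit; the SE is the log2 fold change divided by the square root of F. Zone contrasts and interactions had the animal as a block, since the 3 pieces of a heart share a number within a treatment; their deviations correlated with r from -0.21 to 0.91. Across treatments the same number names different animals, and r ran from -0.63 to 0.51, so numbers were not paired there. Log2 CPM used a prior count of 2. Among 135 pairs of libraries within groups none held identical counts.

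The text names all 10 members and, from each pathway list, up to 3 genes with the largest rise and fall among those called with a mean log2 CPM of at least 1; of the infarct zone lists only some of these are printed, and 1 is not reported here. For Maff and Fos the 5 genes with the highest Spearman's rho are named. Fits were tested on simulated data. Alternatives were DESeq2 1.42.0, no filter, at least 10 counts in every library and no TMM factors. Others were the replicate block (or its removal), all 9 groups in 1 fit, and each heart left out in turn with all its libraries. Leaving out sham replicate 5 and cell sheet replicate 1 together was chosen after seeing the data. Fosb rested on the fewest reads, 11 to 129 counts per library, and so carries the most counting error.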

Additional observations from a re-analysis of the deposited data

Results flagged for a closer look

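Of 90 groups of 6 libraries (10 members in 9 groups), 11 held a library whose gap to its nearest neighbour exceeded Dixon's critical share of the group's range; a gap of that kind arises by chance in about 1 of 20 groups. Sham replicate 5 accounted for 8 of the 11. Its Atf3 levels were 53.9 CPM in the infarct, 64 CPM in the border and 44.7 CPM in the remote zone, where the other sham hearts reached at most 15.7, 12.8 and 14.9 CPM. Its Junb levels were 174, 220 and 143 CPM in the same order, against at most 79.3, 78.1 and 72.2 CPM in the others. Its Jund levels were 305 CPM in the infarct and 372 CPM in the border zone, against at most 193 and 230 CPM. The same libraries held the high macrophage and low cardiomyocyte marker sums given above, and the part of these in the levels was not tested.

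The remaining 3 came from different hearts. MI replicate 2 had a border zone Junb level of 299 CPM (others 123 to 174 CPM), MI replicate 5 a remote zone Maff level of 65.1 CPM (others 30.8 to 43.1 CPM), and cell sheet replicate 6 an infarct zone Egr1 level of 62.4 CPM (others 21.6 to 36.4 CPM).

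The effect of MI against sham differed between the infarct and the remote zone, by the test of the interaction within hearts, for Fosl2 (0.87 on the log2 scale, edgeR adjusted p = 0.0034), Jun (0.32, edgeR adjusted p = 0.021) and Jund (0.47, edgeR adjusted p = 0.0125). The Maff difference was -0.69; its MI infarct zone libraries took part in choosing it, so no test is given.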

How the results depend on the processing

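No member's difference reversed among those called: over the alternatives, 495 recomputed member values kept their direction and side of the threshold and 77 no longer passed. Both totals include the Maff differences given above without a test, also those of the contrast that chose it. They are therefore not read as support for Maff. Counts of members called, Maff included, moved by more than 1.5 times in the cases below, given with the leave-one-out ranges, and the cause was not tested. For cell sheet against MI within a zone or with zones summed no counts are given, since Maff, chosen in this contrast, takes part in them. The changed calls of the other 9 members there are given above. Counts for cell sheet against sham, for zones of cell sheet hearts and for the MI against sham interaction include Maff, which is not read as a test there. Without TMM factors, MI against sham called 6 members in the infarct and 3 in the border zone, and infarct against remote in MI hearts 5. Of all genes, 8322, 6554 and 6192 were then called, against 7866, 6517 and 5784 with TMM factors. DESeq2 called 2 for MI against sham in the border zone and 1, Fosb, for the border minus remote interaction of cell sheet against MI. Keeping only genes with 10 or more counts throughout gave 2 for MI against sham in the border zone, as did the fit of all 9 groups. Of all genes, DESeq2, this filter and the fit of 9 groups called 7600, 5968 and 7828 there, against 6517. Hearts were also left out 1 at a time, with all their libraries in the comparison. MI against sham then gave 1 to 6, 1 to 4 and 0 to 4 members in the infarct, border and remote zones. The genes called ran over 6689 to 10434, 5068 to 9641 and 2744 to 7177. Cell sheet against sham gave 6 to 9 and 4 to 7 members in the infarct and border zones, with Maff in each count. There, 7975 to 11159 and 5820 to 9954 genes were called. Infarct against remote gave 3 to 5, 0 to 3 and 4 to 5 members in sham, MI and cell sheet hearts. Its gene counts were 3866 to 4723, 3236 to 5928 and 8170 to 10054. The MI against sham interaction gave 4 to 6 members, beside 3654 to 5727 genes.

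With the replicate block across treatments, where the numbers name different animals, MI against sham in the border zone had 2 members called. Among all genes the block gave 4193 in place of 6517 for that comparison. For cell sheet against MI it gave 1214 genes in place of 2922 in the border zone and 2 in place of 2623 in the remote zone. With zones summed it gave 477 in place of 2179. Without the animal block, the zone contrast in sham hearts called 0 members and the MI against sham interaction 1, and the genes called were 1081 in place of 4878 and 1431 in place of 4748. For cell sheet against sham in the remote zone, DESeq2 called 180 genes and the fit of 9 groups 183, in place of 1. With no filter, the summed comparison called 1378 genes in place of 2179.

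Without TMM factors the median of all genes moved for MI against sham from -0.02 to 0.24 in the infarct zone and from -0.02 to 0.17 in the border zone, and for cell sheet against sham from 0.01 to 0.28 and from -0.03 to 0.24 (log2). The Maff difference of MI from sham in the infarct zone, given without a test, then changed sign, from -0.07 to 0.19, and was -0.05 relative to that median; cell sheet against sham was -0.79 and -0.9 relative to it. Levels moved by more than 1 SD without TMM for Jun in MI infarct libraries (175 CPM) and for Jund in MI border, cell sheet border and cell sheet infarct libraries (220, 241 and 272 CPM).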
